A study of Caenorhabditis elegans with 4 samples.

Results

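Glutathione S-transferases are enzymes that join the tripeptide glutathione to reactive and foreign compounds, so that these can be exported or broken down. In Caenorhabditis elegans the family has many gene copies, several of them standing side by side on chromosome II, and some members are induced by the stress regulator SKN-1, the worm counterpart of Nrf2. Genes named gsto belong to the omega class and genes named gstk to the kappa class. The remaining genes carry gst numbers, which do not give the class. The family was taken as every gene of the count table whose WormBase name is gst, gsto or gstk followed by a number. This gave 49 of the 20392 genes in the table, with 44 gst, 3 gsto and 2 gstk genes. All 49 passed the filter on low counts, and the smallest count of a member in any library was 6.

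The libraries were made from total RNA of whole first-stage (L1) larvae. The wild-type group was the Bristol strain (labelled GW1 / N2) and had 2 libraries. The mutant group, also with 2 libraries, came from strain GW1125, which carries lsm-8 allele xe17 on chromosome IV over the balancer nT1[qIs51](IV;V); the allele holds a red marker (myo2p::mcherry::unc54 3'UTR). Both groups hatched for 16 hours without food, were sorted by size and for a pharynx without the green marker, and were fed for 2.5 hours after the sort. In the mutant group this sort leaves lsm-8-/- larvae. Mutant larvae of a balanced strain have heterozygous mothers, and wild-type larvae do not. LSM-8 is the subunit that defines the nuclear LSM2-8 ring, which binds RNA, and the study asks how this ring and the exonuclease XRN-2 act on silenced genes. The comparison here was lsm-8 mutant against wild type. The labels do not say whether a group's 2 libraries are from different cultures; if they are not, the p-values rest on a spread that may be technical only.

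Library totals ran from 50755251 to 101230177 counts, with a mean depth in the mutant 1.83 times that in wild type. At this depth, 3 counts correspond to between 0.0293 and 0.0600 CPM (a gene's counts as a share of its library, scaled up, with TMM normalization), which covers counting error only. As a check of the genotype, lsm-8 RNA measured 15.4 and 15.9 CPM in wild type against 3.25 and 3.73 CPM in the mutant (edgeR adjusted p = 3.85e-11). Markers of intestine (9 of 10 listed were found), epidermis, body wall muscle, pharynx and neurons were present, though not all at clear levels. The epidermis marker rol-6 had 0.0563 and 0.180 CPM in wild type, with as few as 3 counts in a library. The 6 adult yolk and sperm genes summed to 1.06 and 1.30 CPM in wild type and to 2.40 and 2.54 CPM in the mutant, and 3 of them had a count of 0 in at least 1 library. Body wall muscle markers summed to between 7496 and 7636 CPM in wild type and to between 9398 and 9544 CPM in the mutant, with 5 of 6 called higher. Of these sums, unc-54 alone made up 4986 and 5064 CPM in wild type and 6182 and 6263 CPM in the mutant. The red marker of the mutant allele holds the unc-54 3'UTR, and its part in the counts of unc-54 was not tested. Pharynx markers summed to between 3747 and 3811 CPM against between 4293 and 4634 CPM, with 3 of 5 called higher. Most of these sums came from myo-2 (1872 and 1860 against 2042 and 2182 CPM) and myo-1 (1661 and 1632 against 1971 and 2157 CPM). Epidermis markers had 3 of 7 called higher and 1 lower, and neuron markers 1 of 7 higher and 0 lower. The epidermis sum was 505 and 520 CPM in wild type and 500 and 493 CPM in the mutant. Of it, ajm-1, the marker called lower, made up 380 and 384 CPM against 332.2 and 332.4 CPM. The neuron sum was 1594 and 1638 CPM in wild type and 1690 and 1699 CPM in the mutant. Of the 6 tested germ line and embryo genes, 0 were higher and 1 lower. Of all 42 tested markers 17 were higher and 3 lower, where 13.5% of all tested genes were higher and 14.8% lower. Among genes of at least 5 CPM these shares were 18.6% and 20.4%. The part of the markers in the changes below was not tested. In RNA from whole larvae, fewer cells of a type and less RNA per cell cannot be told apart.

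The family changed in both directions. Of the 49 genes, 13 rose and 10 fell in the mutant at an edgeR adjusted p under 0.05, and 26 were not called. Across all 16771 genes tested, 28.2% were called, 13.5% higher and 14.8% lower. When genes averaging under 5 CPM were set aside, 16 of 30 members and 3749 of 9621 genes were called. The median log2 fold change of the members was 0.03, against -0.01 for all tested genes, with the middle 50% of members between -0.18 and 0.34. The groups did not overlap for 34 members, against 62.8% of all tested genes. The mutant libraries were the higher ones for 20 of these members, against 30.9% of all tested genes, and the lower ones for 14, against 31.9%. Most changes were moderate, and only gst-38, gst-37 and gst-14 were called with a change of at least 2-fold, all 3 higher, where 1.65% of tested genes were called higher and 1.7% lower by that much. With scaling to library totals or to the upper quartile the family had 16 members higher and 8 lower. The count of members that fell was 6 instead of 10 without wild type replicate 1, with DESeq2 or with the length correction.

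**Figure D1:**
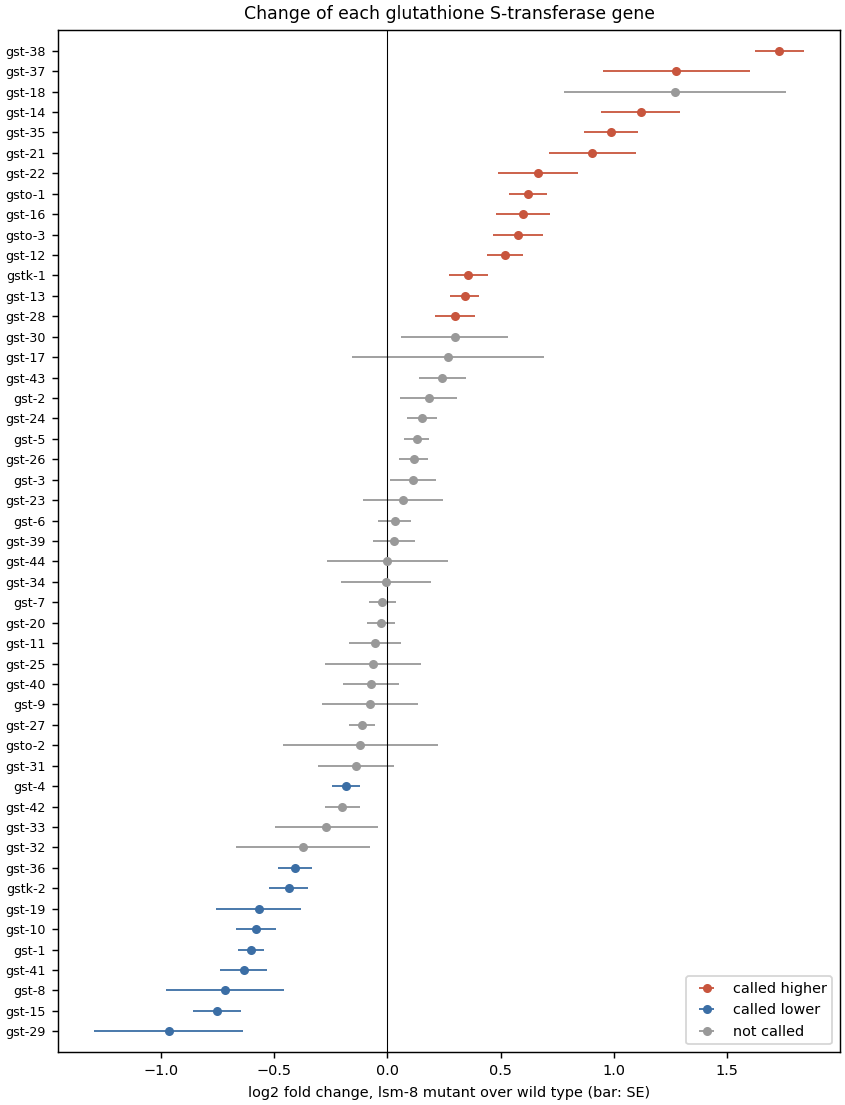
Log2 fold change (lsm-8 mutant over wild type, horizontal axis) of all 49 glutathione S-transferase genes, ordered by size, with bars for the standard error. The points run from -0.96 for gst-29 to 1.73 for gst-38, with 13 called higher (red), 10 called lower (blue) and 26 not called (grey).

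The members are short genes, with a median length of 722 bases against 1106 for all genes in the table. Of the 2504 tested genes of 600 to 900 bases, 197 were called higher and 432 lower, with a median log2 fold change of -0.07. With a correction for gene length, 18 members were called higher and 6 lower, and the members' median was 0.09. Under the same correction 4549 genes were called in all, and the median of all tested genes was -0.00066.

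Levels differed widely between members. Per kilobase of gene length, gst-1 was highest, with a mean of 297 RPKM (CPM per kilobase) in wild type, followed by gst-27 at 172, gst-5 at 162, gst-20 at 158 and gst-36 at 114 RPKM. The lowest was gst-18 at 0.243 RPKM. The 5 highest genes of each library held between 48.6% and 53.5% of the family's summed RPKM, and the 15 highest between 85.3% and 88.2%. Of the 5 genes highest in wild type, gst-1 and gst-36 fell, and gst-27, gst-5 and gst-20 were not called.

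**Figure D2:**
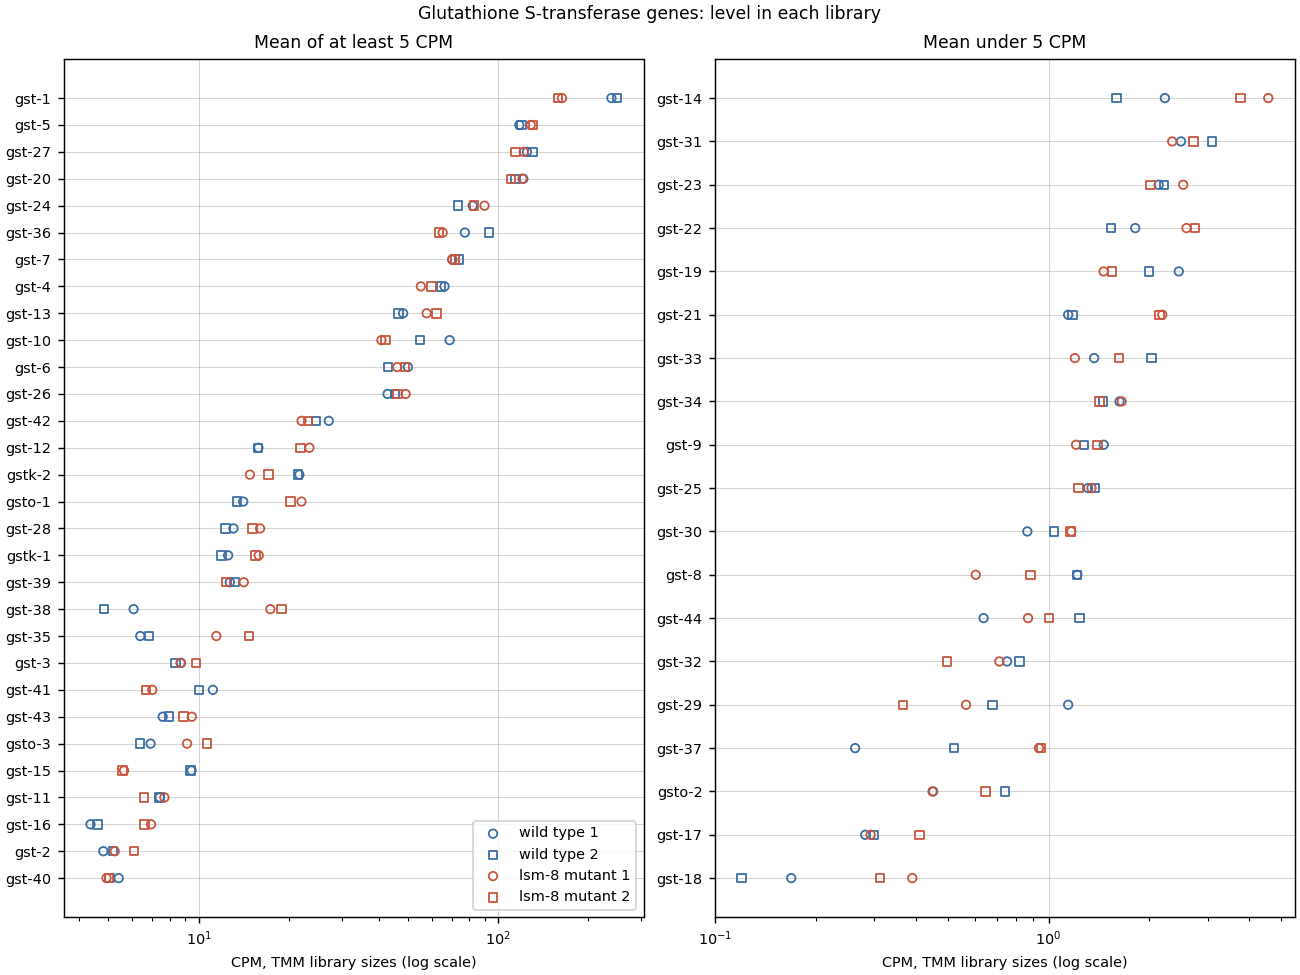
CPM of each glutathione S-transferase gene in each of the 4 libraries on a log axis, with the 30 genes of at least 5 CPM on the left and the other 19 on the right. The wild-type points (blue) of gst-1 lie at 239 and 249 CPM and its mutant points (red) at 163 and 158 CPM, while those of gst-38 lie at 6.06 and 4.84 against 17.3 and 18.9 CPM.

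The most abundant member, gst-1 (WBGene00001749, chromosome III), which encodes an enzyme of the pi class, fell. It measured 239 and 249 CPM in wild type, against 163 and 158 CPM in the mutant. The groups were well apart, and the fall was 1.52-fold (log2 fold change -0.60, SE 0.06, edgeR adjusted p = 1.44e-07). Its call held under every alternative, with log2 fold changes from -0.63 to -0.55. Summed over the family, the level was 1327 and 1320 CPM in wild type and 1257 and 1243 CPM in the mutant. Without gst-1, left out after its values were seen, the sum was 1088 and 1070.5 CPM in wild type and 1094 and 1084 CPM in the mutant, so the groups overlapped. Scaled to library totals, the same sum without gst-1 was 1065 and 1055 CPM in wild type and 1108 and 1109 CPM in the mutant, with no overlap, and the sum with gst-1 was 1298 and 1301 CPM against 1273 and 1271 CPM.

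Several members are known to act on 4-hydroxynonenal, a toxic aldehyde formed when lipids are oxidised, and these did not move alike. The gene gst-10 (WBGene00001758, chromosome V), the best described of them, measured 68.8 and 54.7 CPM in wild type and 40.7 and 41.996 CPM in the mutant. It fell 1.49-fold (log2 fold change -0.58, SE 0.09, edgeR adjusted p = 0.000216), although the wild-type libraries were themselves apart, and the log2 fold change was between -0.74 and -0.40 over the alternatives. The more abundant gst-5 was at 117.6 and 119.4 CPM in wild type and at 128 and 131 CPM in the mutant, close together and not called (log2 fold change 0.13, SE 0.06, edgeR adjusted p = 0.0963). For gst-24, wild type had 82.2 and 73.3 CPM and the mutant 89.9 and 83.1 CPM, again not called (0.15, SE 0.07, edgeR adjusted p = 0.0943). Both were called higher with library totals, upper quartile scaling, the deposited log2 values or the length correction, and gst-24 also when replicate 1 of wild type (log2 fold change 0.24, adjusted p = 0.0158) or replicate 2 of the mutant (0.21, adjusted p = 0.0397) was left out. Low-level gst-8, of the same set, was at 1.22 CPM in each library of wild type and between 0.605 and 0.884 CPM in the mutant (log2 fold change -0.72, SE 0.26, edgeR adjusted p = 0.0466). That call was lost when either wild-type library (adjusted p = 0.0879 and 0.0759) or mutant replicate 1 (0.337) was left out. In all it was lost in 9 of 14 alternatives, among them DESeq2 (0.148) and the replicate block (0.0684). The last of the set, gst-6, overlapped between the groups, with 49.9 and 42.9 CPM against 46.0 and 48.9 CPM.

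The gene gst-4 (WBGene00001752, chromosome IV), the usual reporter of SKN-1 activity in worms, fell slightly. It measured 66.2 and 64.3 CPM in wild type and 55.2 and 59.9 CPM in the mutant, so the mutant libraries were the lower ones. The fall was 1.13-fold (log2 fold change -0.18, SE 0.06, edgeR adjusted p = 0.0378). That call was lost in 8 of 15 alternatives, such as leaving out replicate 1 of wild type (adjusted p = 0.137) or of the mutant (0.312) and a block for the replicate number (0.0942). In the annotation gst-4 overlaps the gene dhs-12 on the same strand, whose log2 fold change was -0.01 (SE 0.07).

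Omega-class enzymes reduce oxidised thiols and dehydroascorbate, and of the 3 genes named gsto 2 rose. The gene gsto-1 (WBGene00016204, chromosome III), an intestinal enzyme that protects worms from oxidative stress, had 14.1 and 13.4 CPM in wild type and 22.04 and 20.2 CPM in the mutant. That was a 1.54-fold rise with no overlap (log2 fold change 0.62, SE 0.08, edgeR adjusted p = 1.46e-05). The gene gsto-3 went from 6.91 and 6.38 CPM to 9.15 and 10.7 CPM, a 1.49-fold rise (0.58, SE 0.11, edgeR adjusted p = 0.000604). Levels of gsto-2 were low and overlapped, at 0.451 and 0.740 CPM in wild type and at 0.449 and 0.647 CPM in the mutant. Expression of gsto-1 is known to depend on the intestinal GATA factor ELT-2, and elt-2 RNA itself went from 5.65 and 6.70 CPM to 18.3 and 18.03 CPM (log2 fold change 1.56, SE 0.10). Of 9 intestine markers 3 were higher and 1 lower. The lower one, cpr-6, went from 196 and 179 CPM to 88.2 and 93.3 CPM (log2 fold change -1.05, SE 0.06). The marker elt-7 was not called (-0.25, SE 0.09), though its mutant libraries were the lower ones. The 9 markers, none at 0, summed to 9404 and 9454 CPM in wild type and to 10331 and 9831 CPM in the mutant. Of these sums, asp-1, which was not called, made up 6233 and 6262 CPM in wild type and 7034 and 6655 CPM in the mutant. The part of elt-2 or of intestinal RNA in the rises of gsto-1 and gsto-3 was not tested.

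The kappa-class genes encode enzymes of mitochondria and peroxisomes, and they were called in opposite directions. The gene gstk-1 (WBGene00014251, chromosome II) had 12.5 and 11.9 CPM in wild type and 15.9 and 15.5 CPM in the mutant (log2 fold change 0.36, SE 0.09, edgeR adjusted p = 0.004). The gene gstk-2 (WBGene00017054, chromosome IV) had 21.7 and 21.5 CPM in wild type and 14.8 and 17.1 CPM in the mutant (-0.43, SE 0.09, edgeR adjusted p = 0.000714). Neither gene's groups overlapped, and both calls held under every alternative. The end of gstk-2 overlaps elo-3, a fatty acid elongase gene on the other strand, which had a log2 fold change of 0.53 (SE 0.06). Whether the counting used strand is not given in the sources used here.

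The zeta-class gene gst-42, whose enzyme isomerises maleylacetoacetate in the breakdown of tyrosine, was not called. It had 27.2 and 24.6 CPM in wild type and 22.05 and 23.1 CPM in the mutant (log2 fold change -0.20, SE 0.08, edgeR adjusted p = 0.0609). The groups did not overlap, and without wild type replicate 2 the gene was called lower (-0.27, adjusted p = 0.0162). For gst-44, whose number does not give its class, the wild-type libraries, at 0.638 and 1.24 CPM, enclosed the mutant values of 0.868 and 1.002 CPM.

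Among the other numbered genes, the largest rise was that of gst-38 (WBGene00001786, chromosome V). It was at 6.06 and 4.84 CPM in wild type and at 17.3 and 18.9 CPM in the mutant. The rise was 3.32-fold (log2 fold change 1.73, SE 0.11, edgeR adjusted p = 8.75e-10), and it was between 1.57 and 1.90 on the log2 scale over the alternatives. Per kilobase, gst-38 was number 29 of the 49 genes in wild type and number 17 in the mutant. The gene gst-35 (WBGene00001783, chromosome II) went from 6.38 and 6.82 CPM to 11.5 and 14.7 CPM, a 1.98-fold rise (0.99, SE 0.12, edgeR adjusted p = 5.09e-06). Smaller rises at this level were seen for gst-16 (1.51-fold), gst-12 (1.43-fold), gst-13 (1.27-fold) and gst-28 (1.23-fold). The gene gst-13 was the most abundant gene of the family that rose, from 48.1 and 46.4 CPM to 57.7 and 62.2 CPM (0.34, SE 0.06, edgeR adjusted p = 0.000465). The call of gst-28 was lost when replicate 2 of wild type (adjusted p = 0.0811) or replicate 1 of the mutant (0.0956) was left out.

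**Figure D3:**
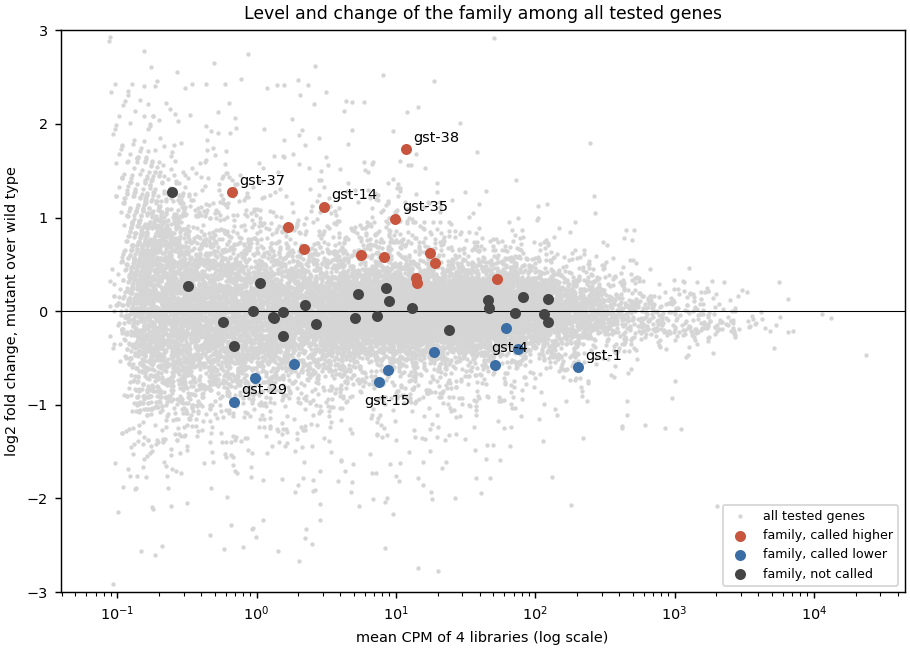
Mean CPM of the 4 libraries (horizontal, log scale) against the log2 fold change (mutant over wild type, vertical), with all tested genes in grey and the 49 glutathione S-transferase genes coloured by call; 21 tested genes lie beyond the vertical limits of -3 and 3. The red points with the largest rises, such as gst-38, lie at middle and low levels, and gst-1, the most abundant member, is among the blue points.

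Below 5 CPM, 4 of 19 members rose and 3 fell, where 468 of all 7150 tested genes of this level were higher (6.55%) and 520 lower (7.27%). The gene gst-14 (WBGene00001762, chromosome II) went from 2.23 and 1.60 CPM to 4.56 and 3.77 CPM, a 2.17-fold rise (log2 fold change 1.12, SE 0.17, edgeR adjusted p = 7.47e-05). The gene gst-21 was at 1.15 and 1.18 CPM in wild type and at 2.19 and 2.16 CPM in the mutant, a 1.87-fold rise (0.90, SE 0.19, edgeR adjusted p = 0.00146). Counts of gst-37 were low in wild type, with 14 and 26 reads, against 96 and 88 reads in the mutant. Its CPM values were 0.263 and 0.520 against 0.936 and 0.948 (1.27, SE 0.32, edgeR adjusted p = 0.00594), and without wild type replicate 1 the log2 fold change was 0.86 and the call was lost (adjusted p = 0.0765). The remaining gene that rose, gst-22, went from 1.82 and 1.54 CPM to 2.59 and 2.75 CPM (0.67, SE 0.18, edgeR adjusted p = 0.00762). It was named after its values were seen, and it overlaps F21H7.12 on the other strand, which fell by 1.81 on the log2 scale. The gene gst-18 had a fold change close to that of gst-37 but was not called, with 9 and 6 reads in wild type and 40 and 29 reads in the mutant (1.27, SE 0.49, edgeR adjusted p = 0.0614). It overlaps gst-17 on the same strand, so reads of these genes may not be told apart.

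Among the numbered genes that fell, gst-15 (WBGene00001763, chromosome II) showed the tightest replicates. It measured 9.46 and 9.39 CPM in wild type and 5.64 and 5.56 CPM in the mutant, a 1.68-fold fall (log2 fold change -0.75, SE 0.11, edgeR adjusted p = 2.31e-05). The gene gst-41 (WBGene00001789, chromosome V) went from 11.2 and 10.03 CPM to 7.002 and 6.66 CPM, a 1.55-fold fall (-0.63, SE 0.10, edgeR adjusted p = 0.000123). Abundant gst-36 (WBGene00001784, chromosome X) had 77.4 and 93.04 CPM in wild type and 65.2 and 63.3 CPM in the mutant, a 1.32-fold fall (-0.41, SE 0.07, edgeR adjusted p = 0.000506). All 3 calls held under every alternative. Among low-level genes, gst-29 was at 1.15 and 0.680 CPM in wild type and at 0.566 and 0.366 CPM in the mutant (-0.96, SE 0.33, edgeR adjusted p = 0.0346). Leaving out replicate 1 of wild type (-0.54, adjusted p = 0.396) or replicate 2 of the mutant (-0.70, adjusted p = 0.199) ended that call, as did DESeq2 and the length correction. The gene gst-19 was at 2.46 and 1.999 CPM against 1.46 and 1.55 CPM (-0.57, SE 0.19, edgeR adjusted p = 0.0298). This call was lost when wild type replicate 1 (adjusted p = 0.217), mutant replicate 1 (0.104) or mutant replicate 2 (0.0515) was left out. It was also lost with DESeq2 (0.105), the replicate block (0.0598), the deposited log2 values (0.0517) and the length correction (0.063).

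Of the 26 members that were not called, some were among the most abundant. The gene gst-27 had 125 and 130.2 CPM in wild type and 122 and 114 CPM in the mutant (log2 fold change -0.11, SE 0.06, edgeR adjusted p = 0.177). For gst-20 the groups overlapped, at 121 and 114 CPM against 120.4 and 110.1 CPM. The groups of 11 uncalled members did not overlap, a share of 42.3% against 48.1% of all uncalled genes. A missed threshold does not show that these genes were unchanged: 6 of the 26 were called under some alternative and 20 under none.

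In the larger groups of neighbouring members, calls went in both directions. The WBcel235 annotation was used for chromosome, gene order, strand and overlaps, while the submitters' processing notes name build ce10. In it 26 of the 49 genes were on chromosome II, 9 on V, 5 on IV, 4 on III, 3 on X and 2 on I. Members fewer than 10 protein-coding genes apart formed 4 neighbour groups with 25 genes in all. Of these 25 genes 5 rose and 5 fell, and of the 24 others 8 rose and 5 fell. Across all tested genes 13.5% were higher and 14.8% lower. On chromosome II, 7 of the 26 members rose and 4 fell, where 11.1% of all tested genes were higher and 16.4% lower. In the run of 9 genes from gst-20 to gst-18, all on the same strand, gst-14, gst-12 and gst-16 rose while gst-15 and gst-19 fell. The genes gst-14 and gst-15 are next to each other in this run, and their log2 fold changes were 1.12 and -0.75. In the other run of 9, from gst-26 to gst-35, gst-28 and gst-35 rose and gst-29, next to gst-28, fell. The calls of gst-19, gst-28 and gst-29 were each lost in some alternatives. In the smaller groups, of 4 and 3 genes, the only calls were gst-8 and gst-4, both lower and both lost in some alternatives. Summed over each run, the levels overlapped between the groups, with 238 and 221 CPM in wild type against 253 and 233 CPM in the mutant for the run with gst-14, and 206 and 214 CPM against 218 and 208 CPM for the run with gst-35. Reads of close copies may have been split between them in the authors' counting, which cannot be checked here. In the annotation 10 members overlap a gene on the other strand and 3 a gene on the same strand. Among them gst-36 overlaps scav-5, a scavenger receptor gene with a log2 fold change of 0.24 (SE 0.07), and gsto-1 overlaps kle-2, a condensin gene at -0.10 (SE 0.06).

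**Figure D4:**
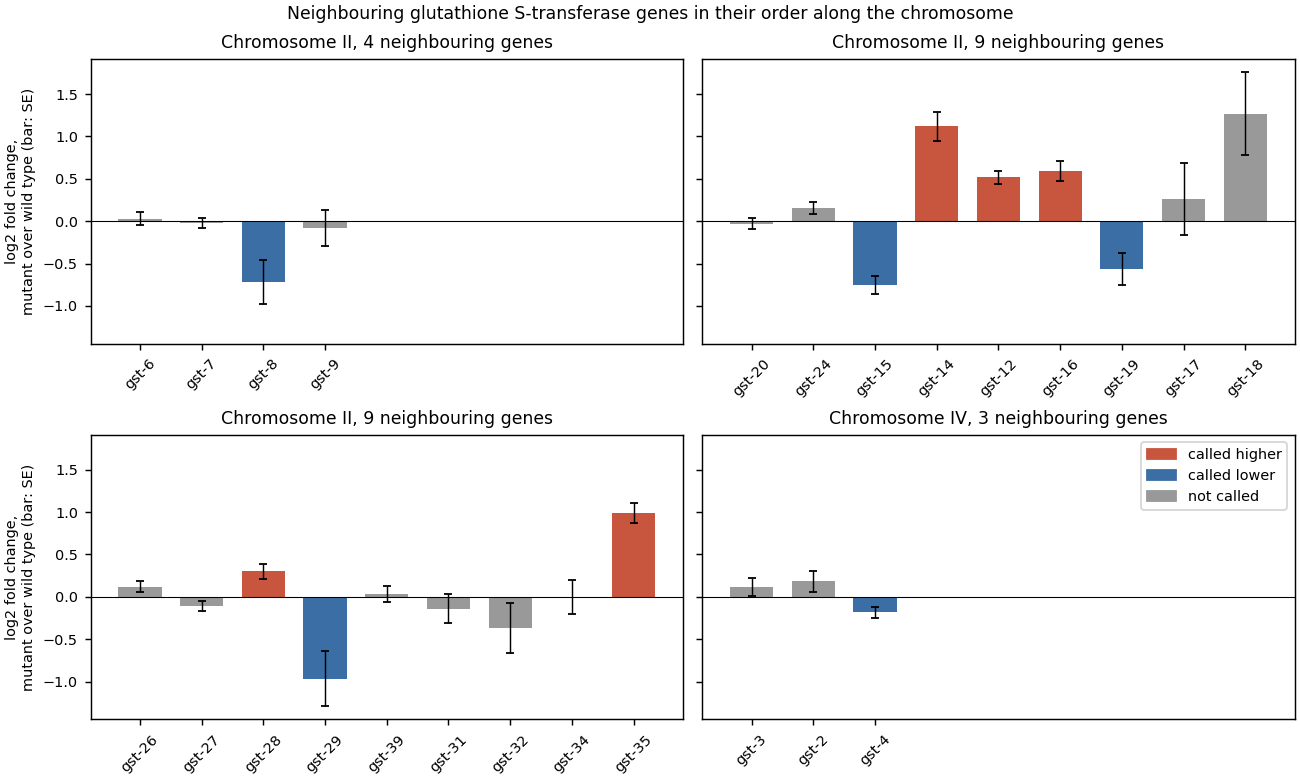
Log2 fold change (mutant over wild type, vertical axis; bars mark the standard error) of the 25 members in 4 neighbour groups, in their order along the chromosome. Red bars (called higher) and blue bars (called lower) stand side by side in both runs of 9 genes, as for gst-15 at -0.75 and gst-14 at 1.12.

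The chromosome that carries lsm-8 and the balanced allele differed from the others across all genes. On chromosome IV, 580 of 2658 tested genes were higher and 241 lower, with a median log2 fold change of 0.09. Of the 5 members there, 0 rose in the edgeR test or in any alternative, gstk-2 and gst-4 fell (the 2 with an unadjusted p under 0.05), and 3 were not called. Outside chromosome IV, 13 of 44 members rose and 8 fell, where 11.9% of all tested genes were higher and 15.9% lower. On chromosome V, the other chromosome of the balancer, 4 of 9 members rose and 2 fell, and 559 of 3802 tested genes were higher and 541 lower.

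In a list for making and recycling glutathione, which also held glutaredoxin and thioredoxin reductase genes, the called members fell. Of 15 symbols listed, 11 were found, and of these 4 fell (edgeR; 5 had an unadjusted p under 0.05) and 7 were not called, with a median log2 fold change of -0.11. Beside the counts of this and the following lists, 13.5% of all 16771 tested genes were higher and 14.8% lower. Among genes of at least 5 CPM these shares were 18.6% and 20.4%. The gene gsr-1, for the reductase that regenerates glutathione, had 249 and 232 CPM in wild type and 164 and 169.9 CPM in the mutant (log2 fold change -0.53, SE 0.06, edgeR adjusted p = 1.02e-06). The gene gcs-1, for the rate-limiting enzyme of glutathione synthesis and a SKN-1 target, had 128 and 133 CPM against 111 and 114 CPM (-0.22, SE 0.06, edgeR adjusted p = 0.00768). The other called genes were the glutaredoxin genes glrx-10 (log2 fold change -0.38, SE 0.07) and glrx-5 (-0.29, SE 0.08). Both are short, at 415 and 502 bases. The length correction was run over the whole table, but its values for these and other list genes are not given here. The part of gene length in their changes is therefore left undecided. Glutathione synthetase gss-1 (-0.06, SE 0.06) and the listed E01A2.1 (0.03, SE 0.07) were not called.

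Glutathione peroxidases, which reduce peroxides with glutathione, had 1 of 8 genes higher and 3 lower. The gene gpx-3 went from 19.6 and 22.4 CPM to 35.2 and 39.1 CPM (log2 fold change 0.82, SE 0.08, edgeR adjusted p = 2.67e-07), while gpx-7 (-0.75, SE 0.13), gpx-5 (-0.37, SE 0.08) and gpx-2 (-0.36, SE 0.07) fell. Of the listed glyoxalases, which clear methylglyoxal, glod-4 had 24.5 and 24.4 CPM in wild type and 14.9 and 16.6 CPM in the mutant (-0.63, SE 0.08, edgeR adjusted p = 7.59e-06), and djr-1.1 fell by 0.25 on the log2 scale (SE 0.08). The list also held hacd-1, a gene for a hydroxyacyl-CoA dehydrogenase of fat breakdown and not a glyoxalase, which rose (0.49, SE 0.13), and djr-1.2, which was too low to test.

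Regulators and other targets of SKN-1 moved both ways. Of 14 regulators 4 rose and 2 fell. The Mediator subunit gene mdt-15 (log2 fold change 0.23, SE 0.06) and elt-3 (0.36, SE 0.08), a GATA factor gene, had higher levels, and brap-2 (-0.32, SE 0.07) and the peroxiredoxin gene prdx-2 (-0.29, SE 0.06) lower ones. The gene skn-1 had 164 and 169.8 CPM in wild type and 177 and 198 CPM in the mutant and was not called (0.17, SE 0.06, edgeR adjusted p = 0.0518), and wdr-23, whose product promotes SKN-1 degradation, was not called (0.05, SE 0.06). Of 10 SKN-1 targets outside the family, 1 rose and 4 fell. The dehydrogenase gene dhs-8 rose (0.93, SE 0.18), and gsr-1, F20D6.11 (-0.46, SE 0.07), the glucuronosyltransferase gene ugt-13 (-0.38, SE 0.06) and gcs-1 fell. The genes gcs-1, gss-1, gsr-1 and trxr-1 also stand in the list of glutathione synthesis.

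Transporters of the MRP family, ABC pumps that can export glutathione conjugates, were called for 7 of the 8 mrp genes, 4 higher and 3 lower. The list also held hmt-1, a gene for an ABC transporter of heavy metal tolerance outside the MRP family, which fell (-0.23, SE 0.06). Of the mrp genes, mrp-2 (log2 fold change 0.42, SE 0.06) and mrp-7 (0.39, SE 0.07) showed the largest rises, and mrp-4 (-0.46, SE 0.06) and mrp-3 (-0.37, SE 0.06) the largest falls. In the tyrosine pathway that holds GST-42, the phenylalanine hydroxylase gene pah-1 rose (0.65, SE 0.07) and hpd-1, for the dioxygenase upstream of the step of GST-42, fell (-0.40, SE 0.06), and the 3 others were not called. Over all 7 lists, 12 of 56 tested genes (21.4%) were higher and 18 (32.1%) lower. Among all genes of at least 5 CPM, 18.6% were higher and 20.4% lower.

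**Figure D5:**
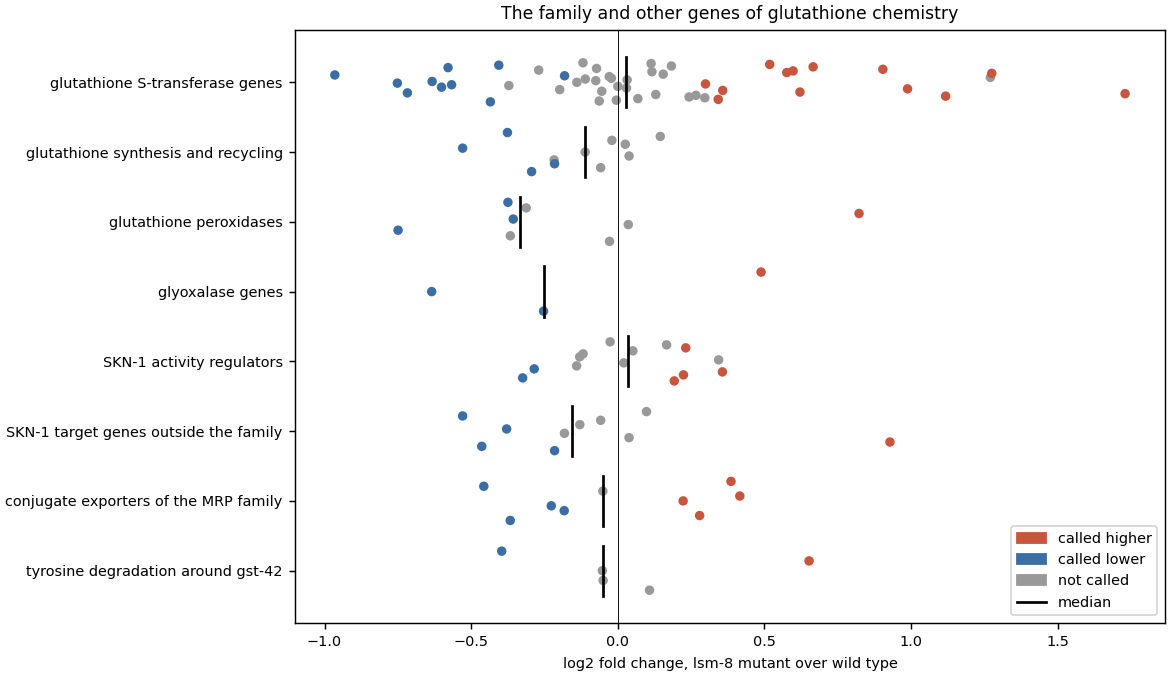
Log2 fold change (mutant over wild type, horizontal axis) of each tested gene of the family and of the 7 lists of related genes, with colours for the call and a black line at each median. The family spans -0.96 to 1.73 around a median of 0.03, and the peroxidase list has a median of -0.33 with gpx-3 alone among its called genes on the right at 0.82.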

How the data were processed

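Per the file headers and values, the authors deposited whole-number read counts per gene for the 4 libraries, with a width per gene taken here as its length in bases, and a table of log2 values. The deposited log2 values equal the log2 of the count scaled to the mean library total plus 8 (largest difference 5.0e-14). The submitters' processing notes name Bowtie, edgeR 3.24.0 and build ce10, with no roles. Stranded total RNA libraries were read as single ends of 50 bases, per the labels; the counter, its annotation and whether it used strand are not given in the sources.

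Counts were tested over the whole table with edgeR 4.0.16 in R 4.3.3 (quasi-likelihood F-test, two-sided, TMM, filterByExpr, robust dispersions, Benjamini-Hochberg adjustment over 16771 genes; called at 0.05). Standard errors came from the F statistic. Fold changes are mutant over wild type. The script was tested on simulated data. Names came from a WormBase identifier table (19182 of 20392 matched). DESeq2 1.42.0, limma 3.58.1 voom, other scalings and filters, left-out libraries and a replicate block were tried. Genes were named by rule: called members of at least 5 CPM without overlap, the 3 largest rises and falls below, the 5 highest per kilobase, members of described biochemistry, and the 2 largest called changes each way per list. Members gst-6, gst-17, gst-18 and gst-22 were named outside this rule with their values already seen, as were some list genes. The gene gst-26 was named only to mark a run. Members and lists were chosen with earlier results of these data known.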

Additional observations from a re-analysis of the deposited data

How the results depend on the processing

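Over 15 alternatives, 17 of the 23 called members kept their call wherever they were tested, and no called value changed sign. The members that lost the call in some setting were gst-4, gst-8, gst-19, gst-28, gst-29 and gst-37. The number of members called lower, 10, was 6 with DESeq2 and 6 with the gene length correction, and 6 to 10 when single libraries were left out; the cause was not tested. The number called higher was between 12 and 14 without single libraries, 13 with DESeq2, 16 with library totals, 17 with the deposited log2 values and 18 with the length correction. With a filter at 5 CPM in 2 libraries, 9 members were higher and 7 lower, since fewer genes were tested. With the replicate number as a block, 13 members were higher and 7 lower, and 3655 genes were called in all against 4737. Differences between replicates 1 and 2 correlated at -0.11 between the groups across 9621 genes, so the numbers are not shown to pair the samples; with the crossed pairing, chosen after seeing the data, 16 members were higher, 11 lower and 5652 genes called. With 2 libraries a group, changes of low-count members rest on few reads.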
